A study of Mus musculus with 8 samples.

Results

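The cyclin-dependent kinase (CDK) inhibitors were examined in the cerebral cortex of newborn mice that were null for estrogen-related receptor gamma (labelled ERRγ-/-, here ERRγ-null) or wild type, all at postnatal day 0. The members were the 8 genes Cdkn1a, Cdkn1b, Cdkn1c, Cdkn2a, Cdkn2b, Cdkn2c, Cdkn2d and Cdkn3, taken as all probes that the platform annotation assigns to these symbols. Of the 8 genes, 7 had a probe, with 13 probes between them, and 7 of the 8098 genes tested were members. The signal of Cdkn3 was not analysed here. The family was selected on the measured Cdkn1b signal, which was among the larger negative differences between ERRγ-null and wild-type cortex, so the genotype differences of the members are given as a description and no test is read from them. The 2 groups were ERRγ-null and wild type, with 2 biological samples each and a pair of Illumina bead arrays per sample (called first and b here), 8 arrays in total. That the arrays of a pair are technical repeats of 1 sample was read from their names, which differ only by a b. The labels name no treatment, and they do not state how the null allele was made, the strain and sex, or whether a sample was 1 animal or a pool. SDs and p-values thus cover the spread between these 4 samples alone, part of which may be technical.

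CDK inhibitors hold back the kinases that drive the cell cycle. The Cip/Kip proteins, p21, p27 and p57, bind complexes of cyclins with CDKs, above all those of cyclin E or A with CDK2. The INK4 proteins bind the monomeric kinases CDK4 and CDK6 and keep D-type cyclins from activating them, which leaves the retinoblastoma protein in its growth-restraining form. In developing cortex p27 and p57 are known for their part in the exit of progenitors from the cell cycle and in neuronal migration, and p19 (the INK4 protein of Cdkn2d) and p27 for keeping neurons out of the cycle. Much of the control of p27 is known to act on the protein, through SCF-Skp2 ubiquitin ligase, and is not read by an RNA array.

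The gene that is null here encodes a transcription factor. The bases in front of the transcription starts are therefore shown for Cdkn1b, the Cip/Kip gene that gave the family its place here. Also shown are its relative Cdkn1a (the second of its 2 annotated starts) and Cdkn2d, the INK4 gene with the highest positive difference. The sequences are the 250 bases before an annotated start in RefSeq (build GRCm38.p6), written 5′ to 3′ on the gene's strand, and capitals mark a GC box (GGGCGG, the core bound by Sp1) or a CCAAT box (CCAAT, the core bound by NF-Y) on either strand.
Cdkn1b, chr6:134920151-134920400, plus strand: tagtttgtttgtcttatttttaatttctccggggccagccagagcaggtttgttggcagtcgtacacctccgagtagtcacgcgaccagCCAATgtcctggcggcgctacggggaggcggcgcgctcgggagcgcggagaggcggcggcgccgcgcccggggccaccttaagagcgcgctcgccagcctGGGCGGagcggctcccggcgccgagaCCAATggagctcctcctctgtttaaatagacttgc
Cdkn1a, chr17:29093519-29093768, plus strand: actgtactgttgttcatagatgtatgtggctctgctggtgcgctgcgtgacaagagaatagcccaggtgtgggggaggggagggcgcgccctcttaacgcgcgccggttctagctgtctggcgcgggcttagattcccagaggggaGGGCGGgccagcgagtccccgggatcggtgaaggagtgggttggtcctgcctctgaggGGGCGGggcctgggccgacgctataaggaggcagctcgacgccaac
Cdkn2d, chr9:21291210-21291459, minus strand: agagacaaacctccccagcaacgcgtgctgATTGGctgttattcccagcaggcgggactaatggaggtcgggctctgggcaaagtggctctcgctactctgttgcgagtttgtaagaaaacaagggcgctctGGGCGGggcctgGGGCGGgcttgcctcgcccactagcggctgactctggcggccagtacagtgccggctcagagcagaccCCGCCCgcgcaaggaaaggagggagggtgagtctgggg

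In the Cdkn1b window 1 GC box began 61 bases before the start, and 2 CCAAT boxes began 35 and 161 bases before it. GC content was 64.4% there, 64.8% in the Cdkn1a window shown and 63.6% in the Cdkn2d window, against a median of 52.4% over all 32851 windows. The window of the other Cdkn1a start, chr17:29090729-29090978, had a GC content of 54.0% and 0 matches to either box. RefSeq windows were found for 7 of the 8 members (Cdkn3 among them, Cdkn1c not), 10 windows in all because some genes have more than 1 start. GGGCGG was present in 6 of these 10 windows and in 32.7% of all windows, and CCAAT in 3 of 10 and in 33.8%. The extended half-site known to be bound by estrogen-related receptors (TNAAGGTCA) was in 0 of the 10 windows and in 1.14% of all windows. Its core AAGGTCA, which lies within the extended form, was in 0 of 10 and in 4.08%, and the FOXO core GTAAACA in 0 of 10 and in 3.17%. Both strands were searched, apart from that pair no motif contains another, and a missing match says only that these letters are not in these windows.

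Cdkn1b, the gene for p27, had the lowest difference of the family. Its detected probe gave normalized log2 signals of 6.75 and 6.54 on the first and b arrays of ERRγ-null sample 1 and 7.35 and 7.05 on those of ERRγ-null sample 2, against 7.62 and 7.50 for wild-type sample 1 and 7.55 and 7.77 for wild-type sample 2. All 4 null arrays lay below all 4 wild-type arrays, and the gap between the highest null and the lowest wild-type array was 0.15. These arrays are pairs from 2 samples per genotype, and Cdkn1b was chosen on this contrast. By sample means, 17.3% of all genes had both null samples below both wild-type samples, and the share by single arrays was not computed. ERRγ-null sample 1 was the lowest, and ERRγ-null sample 2 lay between it and the wild-type samples. Averaged over the arrays of a sample, the signal was 6.92 ± 0.39 in ERRγ-null and 7.61 ± 0.07 in wild-type cortex (SD, n = 2 each). The difference, null minus wild type, was -0.68 on the log2 scale, which is 0.623 of the wild-type signal. Its standard error (SE) by limma was 0.18. Such an SE, here and below, is drawn toward the spread typical of all genes (14 prior against 2 residual degrees of freedom). It is thus not the SE of these 4 sample values alone. Arrays of 1 sample differed by 0.21 and 0.30 in the null samples and by 0.12 and 0.22 in the wild-type samples. The null samples themselves lay far apart, at means of 6.65 and 7.20, against 7.56 and 7.66 in the wild-type samples. In bulk cortex, fewer cells that express a gene and less of its RNA per cell cannot be told apart.

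The genotypes separated in the normalized values, but not in raw intensity. Before normalization the Cdkn1b probe read 219 and 220 on the arrays of ERRγ-null sample 1 and 274 and 243 on those of ERRγ-null sample 2, against 224 and 256 for wild-type sample 1 and 274 and 336 for wild-type sample 2, in linear intensity units. These ranges overlapped. Mean probe intensities were 547 to 639 on the null arrays, against 390 to 565 on the wild-type arrays, so that the ranges overlapped while the 3 dimmest arrays were wild type. Ranked within its own array, Cdkn1b was brighter than 64.5%, 62.4%, 70.0% and 67.3% of all probes on the null arrays and than 72.2%, 71.3%, 71.7% and 73.5% on the wild-type arrays. Quantile normalization sets a probe's value largely from this rank, so the ranks show the same separation and are no second measure of it. The probe was dim, at 2.06 to 2.69 times the median of undetected probes on the null arrays and 2.42 to 3.26 times on the wild-type arrays, where undetected means a detection p of 0.5 or more. With no background correction the difference was -0.40, and in the authors' normalized table it was -0.44. Leaving out ERRγ-null sample 1 gave -0.41, and leaving out ERRγ-null sample 2 gave -0.96.

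**Figure D1:**
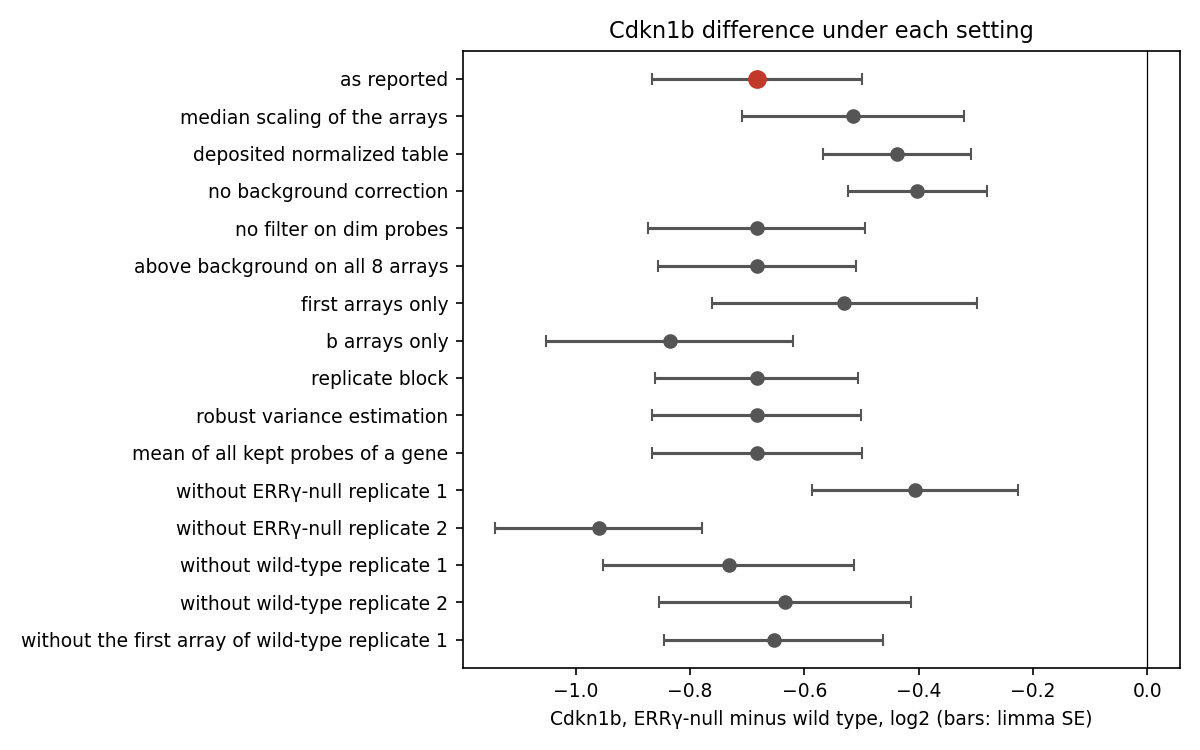
Cdkn1b difference, ERRγ-null minus wild type in log2 units (horizontal axis, bars are limma SEs), as reported in red and under 15 other ways of processing the arrays or with samples left out (rows). All values are negative, between -0.96 without ERRγ-null sample 2 and -0.40 without background correction. For several settings the value or its sign could not change.

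The 2 other Cdkn1b probes gave no second reading. Both were above background on 0 of the 8 arrays, with detection p from 0.169 to 0.566 for one and from 0.604 to 0.970 for the other. The value for p27 transcript thus rests on 1 probe of 3. The part of the transcript that each probe reads is not stated in the files.

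**Figure D2:**
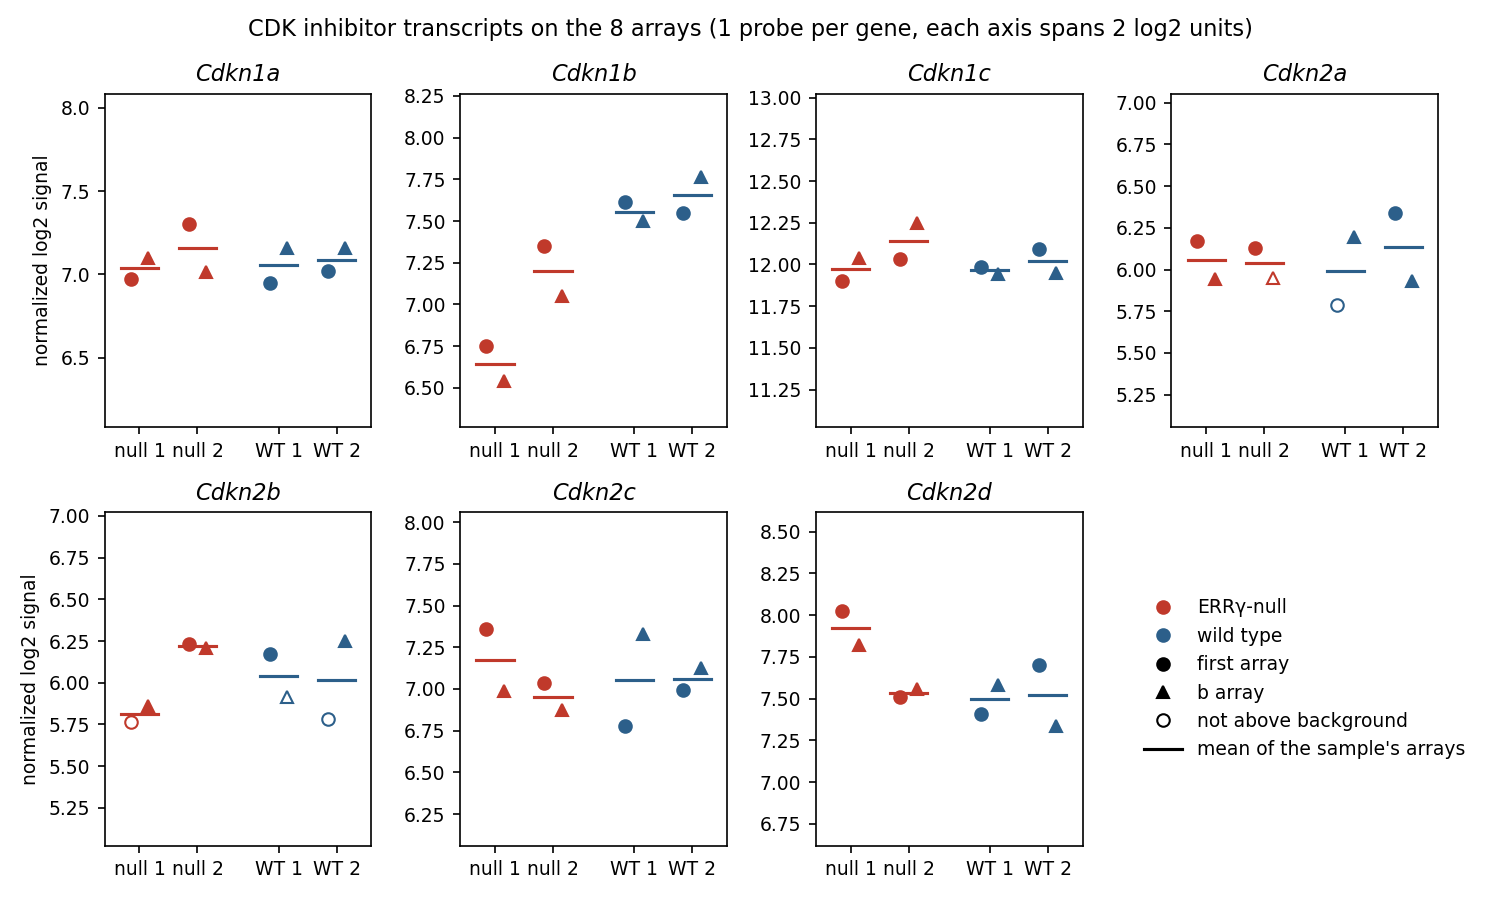
Normalized log2 signal (vertical axis) of the probe that stands for each CDK inhibitor gene, on the 2 arrays of each ERRγ-null and wild-type sample (horizontal axis), with bars at sample means and open symbols for arrays where the probe was not above background. The 4 null arrays of Cdkn1b sit at 6.54 to 7.35, below the 4 wild-type arrays at 7.50 to 7.77, while the arrays of the other genes overlap. Cdkn1b was chosen on this contrast, and the 2 arrays of a sample are not independent.

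Cdkn1c and Cdkn1a, the other Cip/Kip genes, had differences close to 0. Cdkn1c, an imprinted gene that encodes p57, was read by 1 probe well above background on all 8 arrays. Its log2 signal was 11.90, 12.04, 12.03 and 12.25 on the null arrays, against 11.98, 11.95, 12.09 and 11.95 on the wild-type arrays, so that the genotypes overlapped. The difference was 0.06 (SE 0.16), with sample means of 12.06 ± 0.12 in ERRγ-null and 11.99 ± 0.04 in wild-type cortex (SD, n = 2 each).

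Cdkn1a encodes p21, a known target of p53, and was read by 3 probes. The probe above background on all 8 arrays gave 7.10 ± 0.09 in ERRγ-null and 7.07 ± 0.02 in wild-type cortex (SD, n = 2 each), a difference of 0.03 (SE 0.16). A second probe, above background on 7 arrays, gave a difference of -0.19 (SE 0.16). On that probe the arrays of ERRγ-null sample 2 read 5.82 and 6.85, a gap of 1.03 within 1 sample, and the lower of them was the array not above background. This gap exceeded 0.565, the 95th percentile of the gap between these 2 arrays over all genes. Both null sample means on the second probe were below both wild-type means, whereas on the first probe they overlapped. The third probe was undetected on all 8 arrays.

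Of the INK4 genes, Cdkn2d, whose protein is known to help keep neurons postmitotic, had the highest difference. The log2 signal of its only probe was 8.03 and 7.82 for ERRγ-null sample 1 and 7.51 and 7.56 for ERRγ-null sample 2, against 7.41 and 7.58 for wild-type sample 1 and 7.70 and 7.34 for wild-type sample 2. Only ERRγ-null sample 1 stood apart, and on single arrays the genotypes overlapped. Sample means of 7.93 and 7.53 in ERRγ-null and 7.50 and 7.52 in wild-type cortex gave a difference of 0.22 (SE 0.17). ERRγ-null sample 1 was thus the lowest sample for Cdkn1b and the highest for Cdkn2d.

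Cdkn2c encodes p18, an INK4 protein known from dividing neural progenitors. Its detected probe gave 7.36 and 6.99 for ERRγ-null sample 1 and 7.03 and 6.87 for ERRγ-null sample 2, against 6.78 and 7.33 for wild-type sample 1 and 6.997 and 7.13 for wild-type sample 2. The genotypes overlapped throughout, and the arrays of wild-type sample 1 differed by 0.55, more than any 2 sample means did. The difference was 0.01 (SE 0.16), and a second probe was undetected throughout.

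Cdkn2a and Cdkn2b, neighbouring genes best known for senescence and tumour suppression, were at the limit of detection. The brighter Cdkn2a probe was above background on 3 null and 3 wild-type arrays, at 6.05 ± 0.01 in ERRγ-null and 6.06 ± 0.10 in wild-type cortex (SD, n = 2 each), and its other probe on 0 arrays. Cdkn2a gives rise to both p16 and the unrelated Arf protein, and the files do not state which transcript the probes read. Cdkn2b, the gene for p15, was above background on 3 null and 2 wild-type arrays, at 6.02 ± 0.29 in ERRγ-null and 6.03 ± 0.02 in wild-type cortex (SD, n = 2 each). Both differences were -0.01, with SEs of 0.16 and 0.17, and the arrays overlapped.

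Over the family, 8 of the 13 probes passed the filter for dim probes, which asked for signal above background on at least 4 of the 8 arrays, and the other 5 were above background on none. By limma, with Benjamini-Hochberg adjustment over all 8098 genes, 0 of the 7 members tested were past the threshold of 0.05, where 0.0123% of all genes were (1 gene, Xlr4a, with a difference of -2.61). Both null samples lay below both wild-type samples for 1 member, Cdkn1b, where 17.3% of all genes did so, and above them for 1 member, Cdkn2d, where 17.7% did. The choice of the family used this contrast, so nothing is read from these counts. The median difference of the 7 members was 0.01, with 4 higher and 3 lower, against 0.00 for all genes. Without Cdkn1b the differences ran from -0.01 to 0.22, and the SD of the differences of all genes was 0.197.

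**Figure D3:**
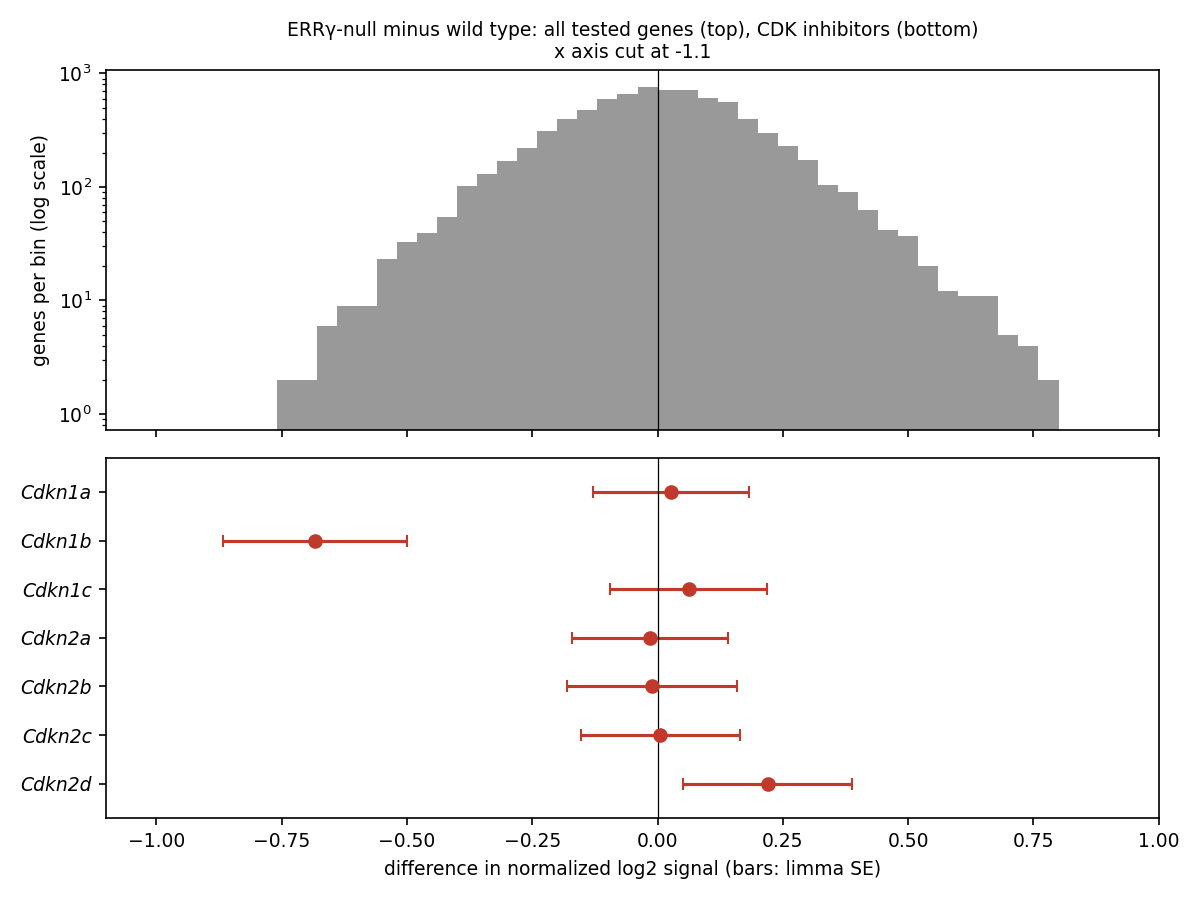
Distribution of ERRγ-null minus wild-type differences over the 8098 genes tested (top, number of genes per bin on a log scale) and the 7 CDK inhibitor genes on the same horizontal axis in log2 units (bottom, bars are limma SEs). Cdkn1b lies at -0.68, in the lower tail of all genes, and the other members lie between -0.01 and 0.22. Xlr4a, at -2.61, is outside the axis.

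Cdkn1b was in rank 5 from the lowest difference over all genes. Just beyond it at rank 4 was Wdr13, a WD-repeat protein gene, with -0.69, and next after it at rank 6 was Relch, whose product acts in cholesterol transport between endosomes and the Golgi, with -0.68. These values are given to show where Cdkn1b stood, without a test. In profile over the 8 arrays, each gene taken relative to its own mean, the 5 genes closest to Cdkn1b were Smim15, Smarcc1, Pum2, Cmc1 and Thsd7b, out of 3206 genes above background on all arrays with an SD of at least 0.2. Their root mean square differences from Cdkn1b were 0.172, 0.179, 0.184, 0.187 and 0.190 log2 units, where the median over those genes was 0.472. Smarcc1, a subunit gene of the SWI/SNF chromatin remodelling complex, read 8.39 and 8.81 in the null samples and 8.86 and 9.11 in the wild-type samples. Pum2, the gene for a Pumilio protein that represses translation, read 7.10 and 7.80 in the null and 7.92 and 8.21 in the wild-type samples. Both had their lowest value in ERRγ-null sample 1, like Cdkn1b. They were chosen for a profile like that of Cdkn1b, so this is no separate observation. The likeness rests on 4 samples in technical pairs, and of the 2 other members in that set Cdkn2c was at 0.475 and Cdkn2d at 0.592.

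Genes that act with, on or beside the inhibitors were compared next, from 11 lists called pathway genes here. Of 108 genes listed, 91 had a probe under the listed symbol and 54 were tested. By limma, 0 passed the threshold in either direction, and 1 was higher and 1 lower at an unadjusted p under 0.05, where 3.61% and 3.62% of all genes were. Their median difference was -0.01, with 26 higher and 28 lower, against 0.00 for all genes.

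D-type cyclins, the partners that INK4 proteins keep from CDK4 and CDK6, had a median difference of -0.04 over 3 genes. Ccnd3 read 8.93 and 8.87 in the null and 8.75 and 8.62 in the wild-type samples, a difference of 0.21 (SE 0.16), and Ccnd2 differed by -0.12. Cdk6 was not above background on enough arrays, and Cdk4 was not analysed here. Among the cyclins E and A with CDK2, the complexes that Cip/Kip proteins inhibit, 2 genes were tested, with a median of 0.05. Cdk2 itself differed by -0.01 (SE 0.16) and its activating phosphatase gene Cdc25a by 0.11.

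Of the mitotic cyclins and CDK1, 2 genes were tested and the median was 0.23. Cdc25b, a phosphatase gene that activates CDK1, was the 1 pathway gene higher at an unadjusted p under 0.05, with 6.67 and 6.17 in the null and 5.91 and 5.97 in the wild-type samples. It was above background on 5 of 8 arrays, and its difference of 0.48 (SE 0.18) did not pass (limma adjusted p = 0.521). Cdk1 differed by -0.03. Mnat1, the assembly factor gene of the CDK-activating kinase and the only one of that list tested, differed by -0.07. With the mean of all its kept probes that difference was 0.14. Cdk5, a neuronal kinase that acts outside the cell cycle and is known to phosphorylate p27 in migrating neurons, differed by 0.17, and its activator gene Cdk5r1 (p35) by -0.34 (SE 0.16, limma adjusted p = 0.698). The median of these CDK5 genes was -0.09 over 2 genes.

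Among pocket proteins and E2F/DP factors, through which CDK activity reaches transcription, 2 genes were higher and 5 lower (median -0.10). With other processing or a sample left out, the median of this list ran from -0.14 to 0.09, and it was 0.01 without wild-type sample 1. E2f4 differed by 0.26 and Rb1, the retinoblastoma gene, by -0.16. For Rb1 the genotypes overlapped, at 9.88 and 9.92 in the null and 10.22 and 9.88 in the wild-type samples. Of 10 genes for p27 ubiquitination and export, 9 were higher and 1 lower (median 0.09), where 50.6% of all genes were higher. By limma 0 were past the threshold and 0 at an unadjusted p under 0.05. With other processing or a sample left out, that median ran from 0.04 to 0.28. The highest value came with median scaling of the arrays, where the median of all genes was itself 0.17. Rnf123, the catalytic subunit of the KPC ligase that acts on p27 in the cytoplasm, differed by 0.33 (SE 0.19). Its samples overlapped, at 6.93 and 7.18 in the null and 6.42 and 7.02 in the wild-type samples. Usp19, a deubiquitinase gene known to stabilise that ligase, read 8.30 and 8.10 in the null and 7.94 and 7.86 in the wild-type samples, a difference of 0.30 (SE 0.16, limma adjusted p = 0.750). Skp2 was not analysed here.

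Of 13 transcriptional regulators of CDK inhibitors, 3 were higher and 10 lower (median -0.07), where 50.6% of all genes were higher. Bmi1, a Polycomb gene known as a repressor of Cdkn2a, was the 1 pathway gene lower at an unadjusted p under 0.05. It read 7.41 and 7.63 in the null and 8.08 and 8.20 in the wild-type samples. The difference of -0.62 (SE 0.16) did not pass (limma adjusted p = 0.413). Smad3, a mediator of TGF-beta signalling to Cdkn2b and Cdkn1a, differed by 0.31, and Foxo1, of a family that activates Cdkn1b, by -0.24. Foxo3 was not above background on enough arrays.

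Of 8 genes known as p53 targets beside Cdkn1a, 5 were higher and 3 lower (median 0.07), among them Trp53inp1 at -0.29 and the apoptosis gene Bbc3 at 0.17. In the list of genes from the imprinted region around Cdkn1c the median was -0.07 over 4 genes. Igf2 of that list read 10.34 and 11.37 in the null and 10.66 and 10.55 in the wild-type samples. Cd81 differed by -0.14 (SE 0.16). The 2 chromosomal neighbours of Cdkn1b that were tested had a median of 0.15, with Gpr19 at 0.18 (SE 0.15) and Ddx47 at 0.11 (SE 0.16), both opposite in sign to Cdkn1b.

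**Figure D4:**
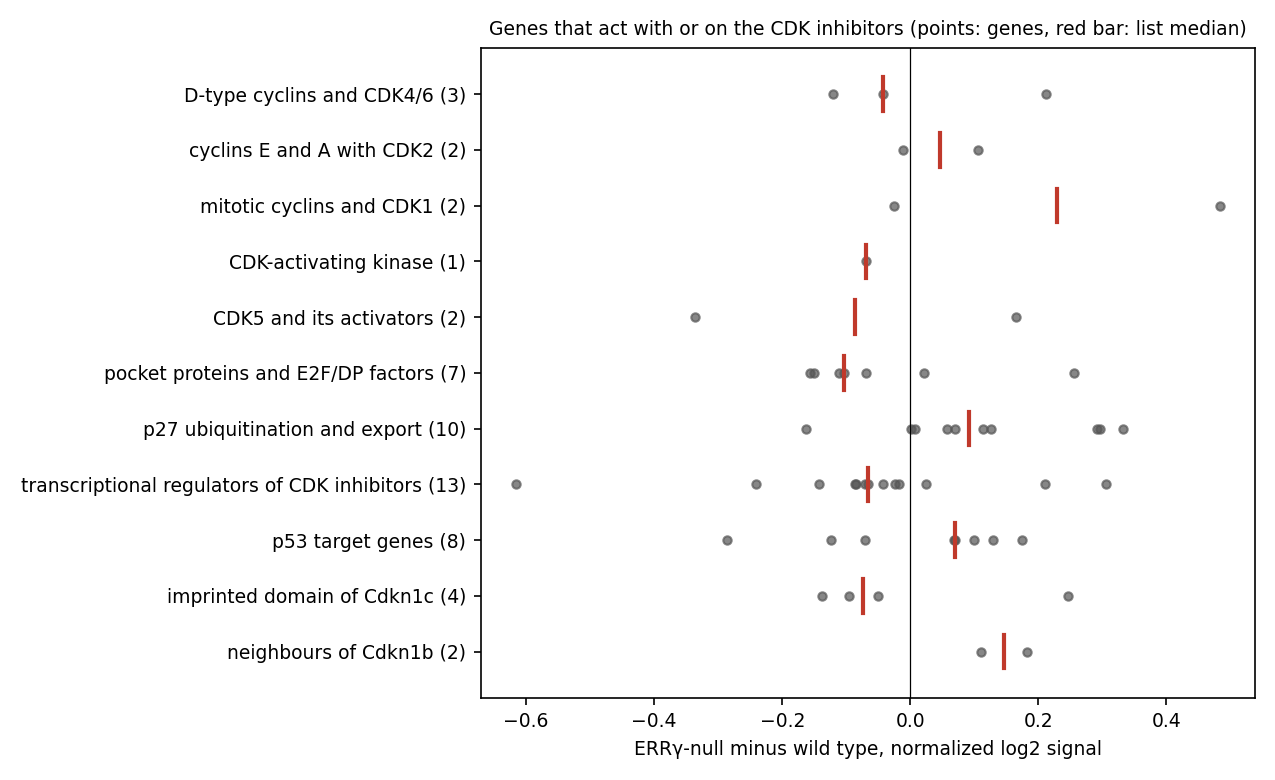
ERRγ-null minus wild-type difference in log2 units (horizontal axis) for each tested gene of 11 lists of genes that act with, on or beside the CDK inhibitors (rows, with the number tested in brackets), where points are genes and red bars list medians. List medians lie between -0.10 and 0.23, with Bmi1 at -0.62 and Cdc25b at 0.48 as the outermost points.

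The makeup of the samples was read from 12 marker lists, because the inhibitors differ between dividing and postmitotic cells. Of 17 proliferation markers, 9 were higher and 8 lower (median 0.02), with a mean log2 signal of 7.80 and 7.71 in the null and 7.80 and 7.75 in the wild-type samples. For radial glia and intermediate progenitors, 8 of 9 marker genes were lower (median -0.16), where 50.6% of all genes were higher. Mean signals of these markers were 8.31 and 8.27 in the null and 8.41 and 8.42 in the wild-type samples. Postmitotic neuron markers had a median of 0.03 over 9 genes, with mean signals of 10.76 and 10.74 in the null and 10.67 and 10.75 in the wild-type samples. Cortical identity markers, with a median of 0.06 over 6 genes, lay at 10.31 and 10.19 in the null and 10.18 and 10.21 in the wild-type samples. Medians were 0.06 for inhibitory interneuron (7 genes), 0.08 for astrocyte (5), 0.06 for oligodendrocyte lineage (5), 0.02 for endothelial and pericyte (6), 0.13 for microglia (5) and 0.18 for erythroid markers (2). Choroid plexus was read by Sostdc1 alone, at 0.59, since the probes of its defining gene Ttr did not pass the filter. By limma 0 marker genes passed the threshold. Of the 75 marker genes tested, at an unadjusted limma p under 0.05, 4 were higher (Pcna at 0.58, Tubb3 at 0.50, Gpr17 at 0.67 and Sostdc1). At that p, 3 were lower (Hmgb2 at -0.47, Vim at -0.35 and Calb2 at -0.45). Of all genes 3.61% were higher and 3.62% lower at that p, so these counts are close to the background. The Tubb3 probe was dim and above background on only 4 arrays, and those of Gpr17 and Sostdc1 on 7.

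For meningeal and fibroblast markers, of which 3 of 7 could be tested, the null samples lay far apart, as they did for Cdkn1b. Averaged over the 3 genes, the log2 signal was 8.32 for the first null sample and 9.31 for the second, against 8.55 and 8.52 in the wild-type samples, and the collagen genes Col1a1, Col1a2 and Col3a1 did not pass the filter. The median difference of the 3 genes was 0.25, and 3 of 3 were higher. Dcn, above background on 4 arrays, read 5.40 and 7.12 in the null and 5.87 and 5.64 in the wild-type samples, and Igf2 had the values given above. Igfbp2 read 9.23 and 9.45 in the null and 9.12 and 9.38 in the wild-type samples, so the gap between the null samples lay in Dcn and Igf2. In the mean of the 3 genes, as for Cdkn1b, ERRγ-null sample 1 was the lowest sample, while ERRγ-null sample 2 was above both wild-type samples for that mean and below both for Cdkn1b. The part of progenitor or meningeal cells in the Cdkn1b value was not tested.

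The targeted gene Esrrg had 1 probe, above background on 0 of 8 arrays (detection p from 0.357 to 0.761), so it does not check the genotype labels. Per array, 11022 to 12013 of 25697 probes were detected. The number of arrays and the 2 samples per genotype limit the precision of all these values.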

How the data were processed

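Total RNA of newborn cortex was hybridised to Illumina bead arrays. The deposited intensity per probe and array was linear and not normalized, with a detection p-value beside it, per the file headers. A second deposited table held intensity that the authors had brought to 1 common distribution, by a method not given in the sources used here. Per the submitters' processing notes, GenomeStudio was used.

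Intensities were background-corrected by the neqc function of limma 3.58.1 in R 4.3.3, through the detection p-values and with an offset of 16, then quantile normalized on the log2 scale. Probes with a detection p under 0.05 on at least 4 of 8 arrays were kept (11568 of 25697). Genes were named from the platform annotation, in which 23846 probes had a symbol and 1851 had none, and each was represented by its brightest kept probe (8098 genes). The 2 arrays of a sample were averaged. Genotypes were compared with lmFit and eBayes, two-sided, with 14 prior and 2 residual degrees of freedom. SEs for second probes come from a fit over all kept probes. The fit was tested on simulated data.

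The members, gene lists and alternatives were chosen with earlier results of these data known. The rule for named genes took all members, Esrrg and the 2 genes of each pathway list with the smallest limma p. It also took the neighbours of Cdkn1b in rank and the 5 genes closest to it in profile. Foxo1, Foxo3, Cdk4, Cdk6, Skp2, Xlr4a and the single marker genes, with Ttr and the collagen genes among them, are named beside that rule. RefSeq promoter windows carry their own build, since the files name none. Deviations of same-numbered samples from their group means correlated at 0.0081 over genes, so the numbers were not taken as pairs.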

Additional observations from a re-analysis of the deposited data

How the results depend on the processing

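The count of genes past the threshold, 1 in the fit reported, was 20 with median scaling of the arrays (19 of them higher), 12 with the replicate number as a block (the replicate block), and 0 with no filter on dim probes, with probes above background on all 8 arrays, with the first arrays or the b arrays alone, with robust variance estimation and with the mean of all kept probes of a gene. Leaving out 1 sample gave 0 to 22 genes. Median scaling moved the median of all genes to 0.17, and Cdkn1b relative to that median was -0.69. No pathway gene passed under any of these limma fits (0 in 15 alternatives). Cdkn1b stayed negative in 15 of 15 alternatives, from -0.96 to -0.40, and Cdkn2d positive in 15 of 15, from 0.02 to 0.42. Some alternatives changed only the filter, the variance estimate, the block or the probe summary, and left both values as they were. For both genes the samples did not overlap between genotypes, so leaving out a sample could not change the sign. For Cdkn1b the choice of arrays could not change it either. The counts thus do not measure how firm the signs are. The other 5 members took both signs across the alternatives, within -0.30 and 0.31. With the dimmest array (the first one of wild-type sample 1) left out, an alternative chosen after seeing the data, Cdkn1b was at -0.65. Of 103 member values, 14 moved by more than the SD between samples, and of 165 medians of pathway lists, 33 did. With 2 samples per genotype, leaving out a sample cannot move a member value by more than this SD. Other settings left the differences unchanged by construction, so these counts do not measure stability. The causes were not tested. Cdkn2a, Cdkn2b and the second Cdkn1a probe lie close to background, where a difference between genotypes may not be seen.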
